A study of Mus musculus with 4 samples.

Results

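Open chromatin at 48 sarcomere and contractile genes was described in primary mouse myoblasts, from ATAC-seq peak lists of WT and Tet2 KO cells. The genes were taken as a named set: myosin heavy and light chains, troponins, actins and other thin filament proteins, Z disc and M band proteins, titin, myosin binding proteins, and factors of sarcomere assembly, turnover and energy supply. For each gene the window took in the whole GENCODE M1 record on mm9 and the 10 kb before its start, and every listed peak that shared at least 1 bp with the window was taken. A peak was placed at a promoter of the gene when its centre lay from 1000 bp upstream to 100 bp downstream of a transcript start. By this rule the 48 genes, out of 22350 protein-coding genes on the autosomes and X, held 82 of 25775 listed WT peaks and 9 of 3836 listed Tet2 KO peaks.

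The series has 2 WT and 2 Tet2 KO samples, all C57BL/6, with the same cell source and culture in both genotypes. Satellite cells were sorted from hindlimb skeletal muscle by surface markers that exclude blood, endothelial and Sca1-positive cells, and were harvested as MyoD-positive myoblasts after 3 days in proliferation medium. No treatment other than the genotype separated the groups. By the study's methods, mice were male and 8 to 10 weeks of age where nothing else is said, which the sample labels do not repeat. The Tet2 KO mice carried a constitutive deletion of exon 3, present in all tissues and not in muscle cells alone. Each library was made from 5000 cells and sequenced as 150 bp paired reads. The peak lists hold 1 library per genotype, without replicates, so the genotypes were not tested against each other. The ranges after shares are Wilson 95% intervals and reflect counting error alone. Each list also skips peak numbers, 9707 in WT and 4403 in Tet2 KO, so a peak that is not listed may still have been called.

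Sarcomeres are the repeating units in which myosin filaments pull on actin filaments. Troponin and tropomyosin switch the actin filament on with calcium, Z discs anchor its ends, and titin and the M band hold the myosin filament in place. Proliferating myoblasts have few or no sarcomeres, and most of these genes are known to be switched on strongly when myoblasts exit the cell cycle and fuse. MyoD and its relatives bind E boxes, CANNTG, with a preference for CAGCTG and CAGGTG. Many muscle genes also carry MEF2 sites, CArG boxes bound by SRF, and MCAT motifs, GGAATG, bound by TEAD factors. TET2 oxidises methylated cytosine at CpG sites, the first step in its removal.

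As a check of the label, myoblast marker genes were compared with markers of other cells that muscle can hold. Of 7 myoblast markers 6 had a WT peak in the window, with 15 peaks in all, and Myod1 had a promoter peak in both lists. Myf5 had no peak in either list. The strongest WT peak at a myoblast marker had a fold enrichment of 9.46, at Pax7, and Myod1, Cdh15 and Sdc4 had a Tet2 KO peak as well. Of 5 endothelial markers 3 had WT peaks, 7 in all, with a promoter peak at Pecam1, whose strongest peak reached 11.5, and peaks up to 14.9 at Tek, which also had a Tet2 KO peak. Of 4 blood markers in the annotation 3 had WT peaks, 1 each, and the one at Cd68, at 13.7, was overlapped by a Tet2 KO peak. Peaks in the windows of markers of cells that the sort should exclude were thus present in both lists, in Tet2 KO at Tek and Cd68 alone. Some of them were stronger than any at a myoblast marker. The peaks at Tek and Cd68 lay outside the promoters of these genes, and whether they lay at promoters of other genes is not given here. Beside these counts, 49.5% of all protein-coding genes had a WT peak in the window and 13.5% had a Tet2 KO peak. Of 4 fibro-adipogenic markers Dpt alone had WT peaks, 2 in all, and Nppa, Nppb and Nkx2-5, markers of heart muscle, had none. An open region in a gene window is not a measure of expression, and the part of other cells in the peaks at sarcomere genes was not tested.

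The sequences of the WT peaks on which the comparison of the genotypes turns are given first, each as 200 bp around the summit, on mm9 and on the strand of the gene. Bases in an annotated UTR were left out, which shortened 4 of the 14 stretches, the shortest to 133 bp. Capitals mark E boxes. The pattern CANNTG is matched on both strands at the same place, although its middle bases can read differently on each. The first 8 stretches are the WT peaks that a Tet2 KO peak overlapped, in order of fold enrichment, which compares the height of the summit with its background in the same library.
Myom2 exon, chr8:15073046-15073245, plus strand: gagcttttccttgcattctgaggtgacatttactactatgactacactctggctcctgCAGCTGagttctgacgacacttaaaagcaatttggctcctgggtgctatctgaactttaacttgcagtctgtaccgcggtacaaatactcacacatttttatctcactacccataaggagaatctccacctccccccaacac
Myom1 first intron peak, chr17:71388239-71388438, plus strand: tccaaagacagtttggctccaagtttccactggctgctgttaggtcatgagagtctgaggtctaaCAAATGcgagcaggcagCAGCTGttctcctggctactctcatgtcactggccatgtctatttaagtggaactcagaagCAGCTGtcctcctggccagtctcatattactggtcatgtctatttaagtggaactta
Neb intron, chr2:52174672-52174871, minus strand: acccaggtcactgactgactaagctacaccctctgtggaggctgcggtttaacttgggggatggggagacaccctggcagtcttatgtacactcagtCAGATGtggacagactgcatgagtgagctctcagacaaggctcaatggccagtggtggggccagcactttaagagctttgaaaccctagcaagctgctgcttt
Myom1 second intron peak, chr17:71408675-71408874, plus strand: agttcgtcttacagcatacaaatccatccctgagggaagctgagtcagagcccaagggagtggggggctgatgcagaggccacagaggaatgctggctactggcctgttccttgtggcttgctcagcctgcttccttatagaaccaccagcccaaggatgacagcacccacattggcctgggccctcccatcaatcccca
Tpm3 internal promoter, chr3:89883316-89883461, plus strand: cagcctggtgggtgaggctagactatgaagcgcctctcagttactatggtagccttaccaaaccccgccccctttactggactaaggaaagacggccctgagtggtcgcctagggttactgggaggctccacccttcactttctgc
Smyd1 intron, chr6:71177316-71177515, minus strand: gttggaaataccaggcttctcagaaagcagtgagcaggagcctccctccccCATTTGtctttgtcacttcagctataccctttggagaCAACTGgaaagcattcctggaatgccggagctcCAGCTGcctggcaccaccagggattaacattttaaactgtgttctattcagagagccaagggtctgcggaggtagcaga
Mylpf upstream, at the Tbc1d10b promoter, chr7:134352360-134352559, plus strand: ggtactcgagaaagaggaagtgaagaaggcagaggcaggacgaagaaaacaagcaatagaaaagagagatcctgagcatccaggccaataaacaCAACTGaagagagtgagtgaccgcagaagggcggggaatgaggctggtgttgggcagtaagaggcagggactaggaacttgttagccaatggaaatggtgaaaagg
Des promoter, chr1:75356771-75356903, plus strand: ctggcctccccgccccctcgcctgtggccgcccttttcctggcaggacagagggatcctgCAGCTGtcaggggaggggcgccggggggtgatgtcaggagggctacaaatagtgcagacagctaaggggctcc

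The next 6 stretches are the strongest WT peaks at promoters of the genes that had no Tet2 KO peak.
Ckm promoter, chr7:19996201-19996400, plus strand: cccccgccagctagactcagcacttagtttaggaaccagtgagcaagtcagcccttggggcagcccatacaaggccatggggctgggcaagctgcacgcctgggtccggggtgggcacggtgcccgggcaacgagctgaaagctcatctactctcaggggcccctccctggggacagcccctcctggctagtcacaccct
Myh1 promoter, chr11:67012954-67013153, plus strand: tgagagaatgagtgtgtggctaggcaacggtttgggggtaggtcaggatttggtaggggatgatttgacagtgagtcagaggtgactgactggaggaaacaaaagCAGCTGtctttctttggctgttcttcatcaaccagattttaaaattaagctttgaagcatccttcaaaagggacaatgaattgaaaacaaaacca
Myom2 promoter, chr8:15059995-15060194, plus strand: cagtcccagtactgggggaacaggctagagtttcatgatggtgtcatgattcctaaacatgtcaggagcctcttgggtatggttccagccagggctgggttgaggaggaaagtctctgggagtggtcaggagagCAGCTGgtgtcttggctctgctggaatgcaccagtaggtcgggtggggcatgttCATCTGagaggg
Ldb3 promoter, chr14:35401868-35402012, minus strand: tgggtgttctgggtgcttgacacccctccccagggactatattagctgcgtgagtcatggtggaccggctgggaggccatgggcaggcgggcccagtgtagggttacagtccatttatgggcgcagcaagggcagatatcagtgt
Neb promoter, chr2:52190719-52190918, minus strand: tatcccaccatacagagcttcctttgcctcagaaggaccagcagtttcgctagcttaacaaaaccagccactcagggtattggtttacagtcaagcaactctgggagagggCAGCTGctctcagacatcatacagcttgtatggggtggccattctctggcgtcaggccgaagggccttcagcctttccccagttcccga
Actn3 promoter, chr19:4878504-4878671, minus strand: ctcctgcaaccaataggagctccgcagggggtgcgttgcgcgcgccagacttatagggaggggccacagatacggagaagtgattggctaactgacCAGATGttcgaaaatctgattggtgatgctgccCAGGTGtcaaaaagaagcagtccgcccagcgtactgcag

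Of the 14 stretches, 10 held an E box and 7 held CAGCTG. Among the 8 stretches overlapped by a Tet2 KO peak, 4 held CAGCTG, in Myom2, Myom1, Smyd1 and Des. Among the 6 without one, 3 held CAGCTG, in Myh1, Myom2 and Neb. The second Myom1 intron peak, the Tpm3 peak, the Ckm promoter peak and the Ldb3 promoter peak held no E box in these letters. The first Myom1 stretch held CAGCTG at 2 places 61 bp apart. Counted from each CAGCTG, 50 of 57 bases were identical (87.7%), so the E box lay in a short direct repeat. CpG sites numbered from 1 to 9 per stretch as printed, with 9 in the Actn3 promoter and 1 in each of the Myom1 stretches, the Neb intron and the Myh1 and Myom2 promoters. The shortened stretches lack the CpG sites of the UTR bases. In the full 200 bp the Actn3, Des and Tpm3 promoter peaks had 11 CpG sites each, and the Ldb3 promoter peak had 5.

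Most of the sarcomere genes had open chromatin in the WT list. Of the 48 genes, 39 had at least 1 WT peak in the window (81.2%, 68.1 to 89.8), beside 49.5% of all protein-coding genes. Their windows were longer, with a median of 32143 bp beside 25427.5 bp, and held 3.41 WT peaks per 100 kb beside 1.71 over all windows. These values were not particular to the 48 genes. Non-muscle relatives, heart-restricted relatives and other sarcomere genes, compared below, had WT peaks at 82.4%, 75% and 72.2% of genes. Their windows held 5.12, 4.37 and 2.66 WT peaks per 100 kb. A promoter peak was less frequent: 19 of the 48 genes had one (39.6%, 27.0 to 53.7), beside 30.3% of all protein-coding genes. Of the genes with a WT peak, 16 had 1 peak, 11 had 2, and 12 had 3 or more. The 82 WT peaks lay at promoters of the genes themselves in 24 cases, in introns in 35, upstream in 16, at promoters of other genes inside the window in 5, and in exons in 2. The 24 promoter peaks were 29.3% of the 82 (20.5 to 39.9), beside 35.5% over the windows of all protein-coding genes, where a peak was counted once for each window that held it.

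The Tet2 KO list held few peaks at these genes, in proportion to its length. Tet2 KO peaks were present at 7 of the 48 genes (14.6%, 7.25 to 27.2), beside 13.5% of all protein-coding genes, and at promoters of 2, Des and Tpm3, beside 7.92%. Myom1 and Mylpf had 2 Tet2 KO peaks each, and Tpm3, Neb, Des, Myom2 and Smyd1 had 1 each. Over the windows this was 0.374 Tet2 KO peaks per 100 kb, beside 0.292 over all protein-coding windows. All 9 Tet2 KO peaks overlapped a WT peak, and no gene had a Tet2 KO peak without a WT peak. By gene, the lists as a whole were alike in this. The share of all Tet2 KO peaks that overlapped a WT peak is not given here. Of 11063 protein-coding genes with a WT peak 8070 had no Tet2 KO peak, and 3017 genes had a Tet2 KO peak. Nearly all genes with a Tet2 KO peak thus had a WT peak as well. Of the 39 genes with a WT peak, 32 had no Tet2 KO peak (82.1%, 67.3 to 91), beside 72.9% of all protein-coding genes with a WT peak. There were 9 genes with no peak in either list: Myh4, Myh8, Myl2, Myl3, Acta1, Tcap, Myot, Mybpc2 and Trim63.

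**Figure D1:**
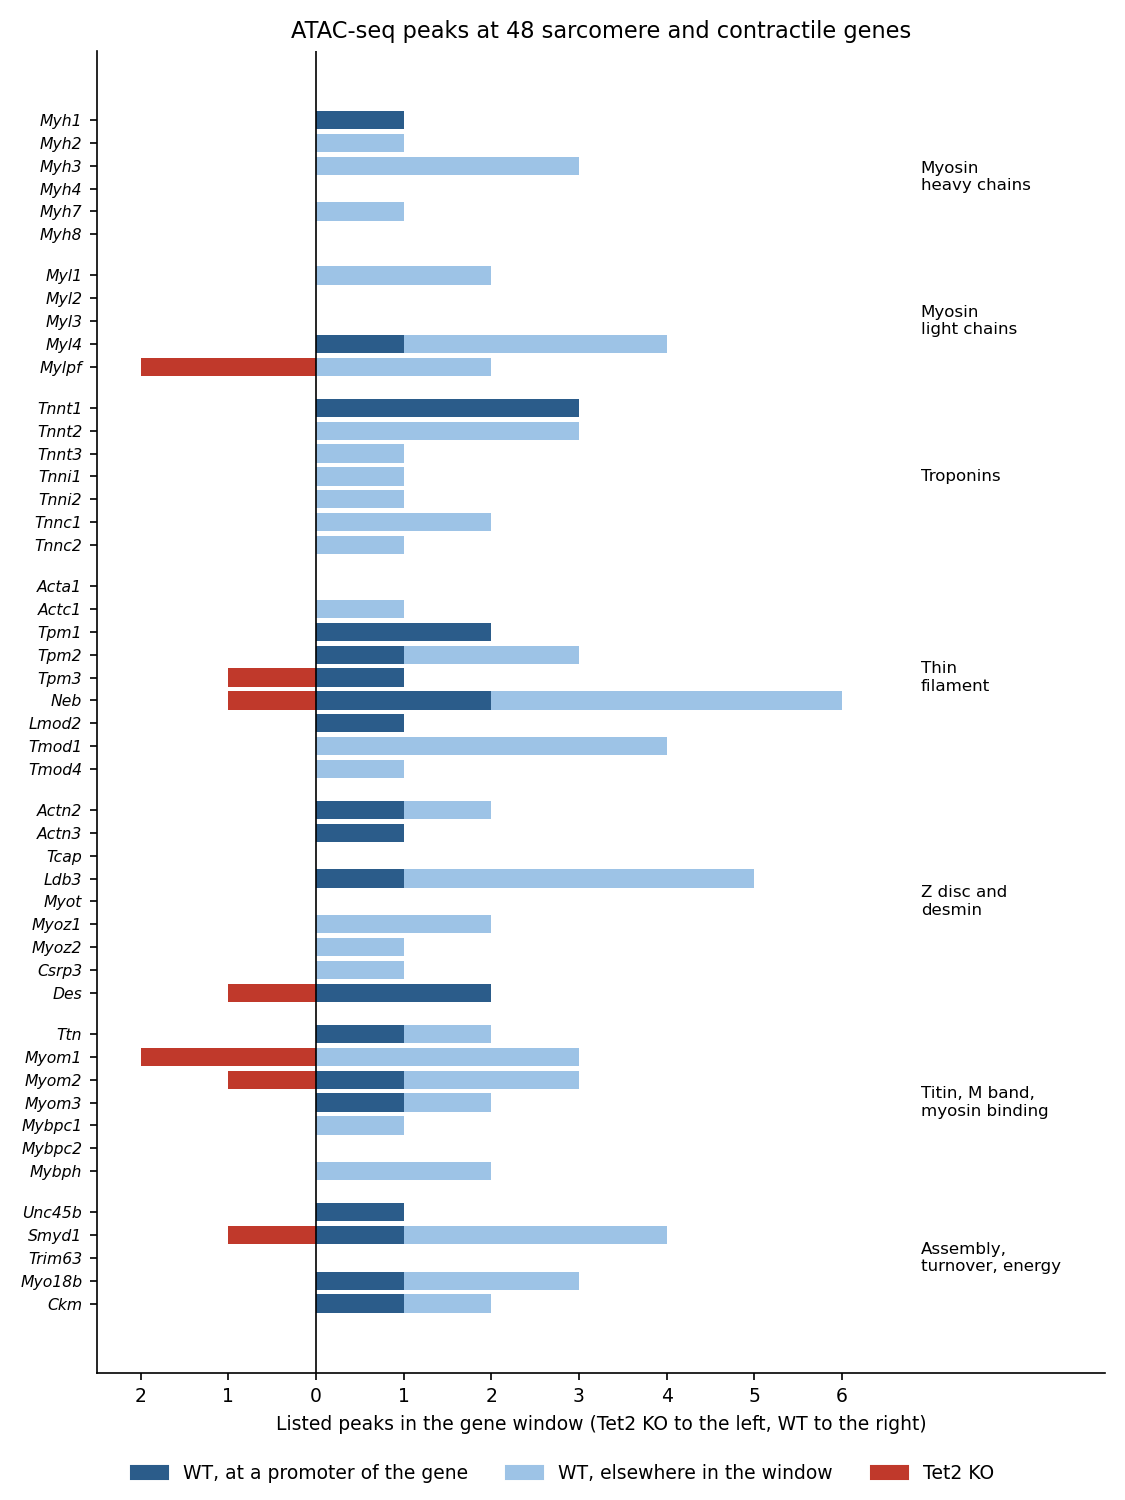
Listed ATAC-seq peaks in the window of each of the 48 genes, grouped by role. Bars to the right count WT peaks at promoters of the gene (dark) and elsewhere in the window (light), and bars to the left count Tet2 KO peaks. WT peaks are present at 39 genes, up to 6 at Neb, and Tet2 KO peaks at 7.

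Seen from the WT peaks, 8 of the 82 were overlapped by a Tet2 KO peak (9.76%, 5.03 to 18.1). Over all WT peaks the share was 14.1%, at promoters 22.5% and outside promoters 10.9%. By class, 2 of the 24 peaks at promoters of the genes were overlapped, 4 of 35 in introns, 1 of 2 in exons, 1 of 5 at promoters of other genes and 0 of 16 upstream. The interval for the 82 peaks holds the share for all WT peaks.

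Overlap followed the strength of the WT peak. Fold enrichment is the ratio of fragments at the summit to those of its background, each with a pseudocount of 1. The 8 overlapped peaks had a median of 10.7 (7.39 to 14.2), and the 74 others a median of 6.81 (4.62 to 13.8). The same medians over all WT peaks were 11.0 and 7.57. All WT peaks were divided into 5 groups of equal size by fold enrichment, and 29 of the 82 peaks fell in the lowest group and 10 in the highest. In the highest group, from 10.4 up, 5 of the 10 were overlapped, beside 41.9% of all WT peaks there. In the group from 8.57 to 10.4 this was 2 of 17, beside 16.1%, and from 7.28 to 8.57 it was 1 of 14, beside 7.33%. From 6.15 to 7.28 it was 0 of 12, beside 3.34%, and below 6.15 it was 0 of 29, beside 1.75%. The median over the 82 peaks was 7.13, beside 7.89 over all WT peaks. Within each step of strength, the count at the sarcomere genes was thus close to what the share of all WT peaks gives.

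**Figure D2:**
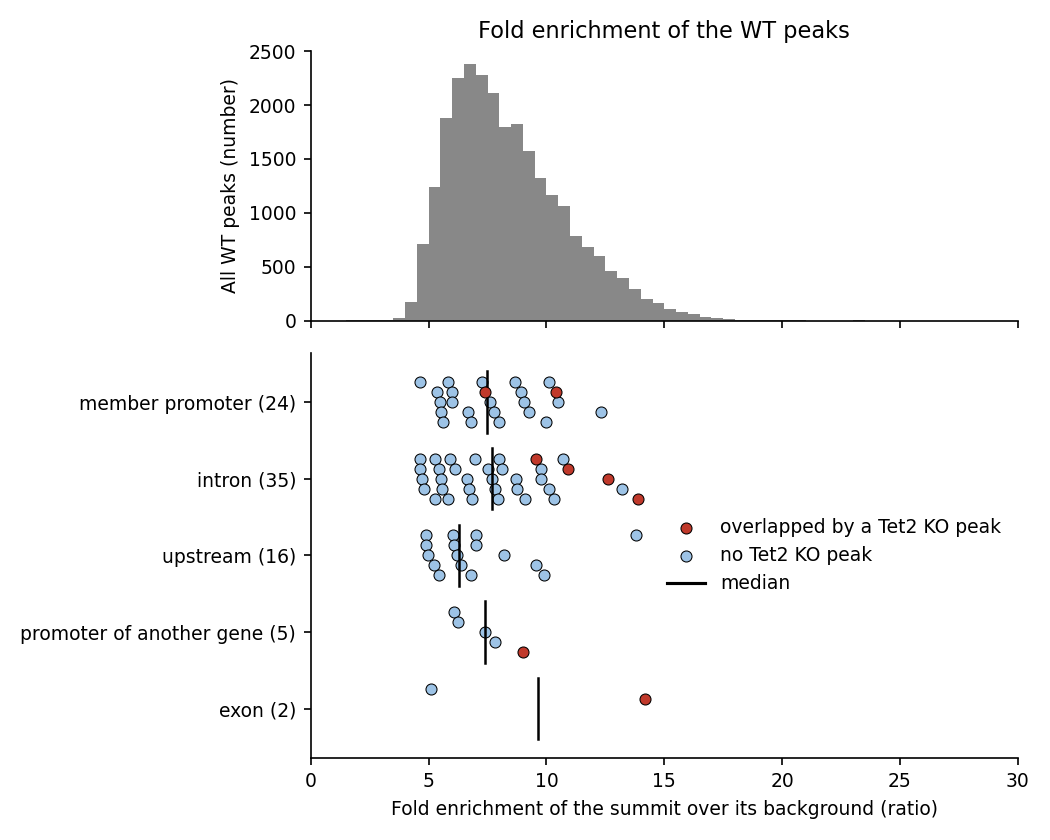
Fold enrichment of all WT peaks (upper panel, number of peaks) and of the 82 WT peaks at the sarcomere genes by the feature they lie in (lower panel, 1 point per peak, number of peaks in brackets, black line at the median). Peaks overlapped by a Tet2 KO peak (red) lie at 7.39 and above, and the strongest upstream peak, at 13.8, has none.

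At the 8 overlapped peaks the Tet2 KO peak was lower in every case. Where 2 Tet2 KO peaks overlapped a WT peak, at Mylpf, the stronger was taken. The ratio of the Tet2 KO to the WT fold enrichment ran from 0.405 to 0.737, with a median of 0.517. Over all 3633 overlapped WT peaks the median ratio was 0.532, and the Tet2 KO value was the lower in 98.1%. The number of fragments at the summit, solved from the deposited enrichment and p, was lower in Tet2 KO at 8 of 8, with a median ratio of 0.549, beside 0.556 over all pairs. The WT library had 0.649 and the Tet2 KO library 1.38 fragments per position in the background value that recurred most often among its peaks. Total read numbers are not known. All 82 WT peaks had a fold enrichment above 3.36, the lowest of a listed Tet2 KO peak with this recurring background. As Tet2 KO values at the pairs were lower than WT values, this does not show that each could have been listed in Tet2 KO. Whether they could was not tested.

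The unlisted peak numbers bear on each gene without a Tet2 KO peak. MACS2 numbers peaks along the genome, so the numbers skipped between the listed peaks on either side of a window give the most peaks that could have been called there and left out. In Tet2 KO this number was 0 for the windows of Myh7, Actn2, Des, Myom3 and Mybpc2, and 1 or more for the other 43. Of the 32 genes with a WT peak and no Tet2 KO peak, Myh7, Actn2 and Myom3 therefore had no called Tet2 KO peak in the window at all. For the rest the lists cannot tell a peak that was not called from one that was not listed. Likewise, of the 9 genes without a WT peak, Myh4, Myh8, Myl3 and Mybpc2 had no skipped WT number at their windows.

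Among the myosin heavy chains, the motor subunits of the thick filament, 4 of 6 genes had WT peaks, 6 in all, and none had a Tet2 KO peak. Myh3, the embryonic form, had 3 WT peaks, at 2993 and 1355 bp upstream of the start and 3113 bp inside the gene, with fold enrichments of 6.99, 5.45 and 6.62. Myh1, a fast adult form, had a promoter peak with its centre 382 bp upstream of the start (chr11:67012987-67013358), with a fold enrichment of 10.5, a -log10 q of 15.4 and 18 fragments at the summit, where q is the p of the summit adjusted by MACS2 over the genome. This peak, one of the 10 strongest of the set, also lay at a promoter of 9430073C21Rik and held CAGCTG, an AP-1 motif and a MEF2 site. Myh2, another fast form, had 1 peak 5850 bp upstream with a fold enrichment of 9.88, and Myh7, the slow form that is also used in the heart, had 1 peak 2912 bp upstream at 6.99. Myh4 and Myh8, the other fast adult form and the perinatal form, had none, and their starts lay 38260 and 36779 bp from the nearest WT summit. All but Myh7 lie side by side on chromosome 11.

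The myosin light chains sit on the neck of the heavy chain. Of 5 genes 3 had WT peaks, 8 in all. Myl4, the embryonic and atrial essential light chain, had 4, with fold enrichments from 5.08 to 7.82. The Myl4 peak at a promoter (chr11:104438033-104438326) lay 120 bp upstream of an internal start, 26202 bp downstream of the RefSeq start, with a fold enrichment of 7.76, a -log10 q of 10.4 and 16 fragments. Myl1, the essential light chain of fast fibres, had a peak 4038 bp inside the gene at 7.53 and one 5896 bp upstream at 6.06, at a promoter of Gm15826. Myl2 and Myl3, which serve slow fibres and the ventricle, had none in either list.

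Mylpf, the regulatory light chain of fast fibres, was the light chain gene with Tet2 KO peaks. Its stronger WT peak (chr7:134352268-134352865) had its centre 2556 bp upstream of the start, at the promoter of the neighbouring gene Tbc1d10b, with a fold enrichment of 8.99, a -log10 q of 24.0 and 40 fragments. The Tet2 KO list held 2 shorter peaks inside it. The first (chr7:134352345-134352624) had a fold enrichment of 6.63, a -log10 q of 9.56 and 22 fragments. The second (chr7:134352663-134352791) had a fold enrichment of 5.44, a -log10 q of 6.26 and 18 fragments. The WT peak nearer to Mylpf, 1094 bp upstream of its start, had a fold enrichment of 4.97, held both CAGCTG and the variant CAGGTG, with a CArG box, and had no Tet2 KO peak.

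All 7 troponin genes had WT peaks, 12 in all, and none had a Tet2 KO peak. The interval for the overlapped share of these 12 peaks, 0 to 24.2%, holds the 14.1% of all WT peaks. Troponin T binds tropomyosin, troponin I inhibits the motor and troponin C binds calcium. Tnnt1, the slow troponin T, held all 3 promoter peaks of the group, each at another of its starts. The first (chr7:4461636-4461991) had a fold enrichment of 8.65, a -log10 q of 15.4 and 24 fragments, and lay 273 bp upstream of the start of a transcript that is not protein-coding. The second (chr7:4466113-4466250), 5 bp upstream of a start, had a fold enrichment of 6.78, a -log10 q of 11.3 and 22 fragments. The third (chr7:4468078-4468241), 175 bp upstream of a start, had a fold enrichment of 5.62, a -log10 q of 6.48 and 14 fragments. The first and second held CAGCTG with the MCAT motif, and the third CAGGTG.

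Tnnt2, the troponin T of heart and embryonic muscle, had one of the 10 strongest peaks of the set, 3768 bp inside the gene (chr1:137741110-137741330), with a fold enrichment of 10.7, a -log10 q of 17.6 and 22 fragments. The other 2 Tnnt2 peaks lay 4724 and 4486 bp upstream of the GENCODE start, at 4.88 and 6.80, and 183 bp upstream and 55 bp downstream of a RefSeq start. By RefSeq starts Tnnt2 would thus count as having promoter peaks. Tnnt3, the fast troponin T, had a peak 326 bp inside the gene at 8.11, and the troponin I genes Tnni1 (slow, 7.94, in an intron) and Tnni2 (fast, 4.89, at 1107 bp upstream) had 1 each. Tnnc1, the slow and cardiac troponin C, had peaks at 8.21 and 4.71, the first centred 10148 bp upstream so that its edge alone reached the window. Tnnc2, the fast form, had 1 peak at 7.39, at the promoter of Snx21.

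Of the 9 thin filament genes 8 had WT peaks, 19 in all, and Neb and Tpm3 had a Tet2 KO peak. Neb encodes nebulin, the giant protein that runs along the actin filament. It had 6 WT peaks, more than any other gene of the set. Its strongest (chr2:52174544-52175015), in an intron 15875 bp from the nearest start, had a fold enrichment of 12.6, a -log10 q of 31.4 and 41 fragments, the most at any of the 82 summits. The Tet2 KO peak there (chr2:52174556-52174885) had a fold enrichment of 6.55, a -log10 q of 7.62 and 17 fragments. Both Neb promoter peaks lay at internal starts, and no WT summit lay nearer than 3002 bp to the start of the record. The first (chr2:52190755-52190901), 174 bp upstream of an internal start, had a fold enrichment of 9.24, a -log10 q of 14.9 and 21 fragments. The other (chr2:52191270-52191415) had a fold enrichment of 5.83, a -log10 q of 6.49 and 13 fragments. Neither had a Tet2 KO peak, and the other 3 Neb peaks lay in introns at 5.46 to 9.10.

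Tropomyosin lies along the actin filament and blocks the myosin sites at rest. At Tpm3, the slow tropomyosin that is also made outside muscle, the single WT peak (chr3:89883309-89883600) was centred 8 bp upstream of an internal start, with a fold enrichment of 10.4, a -log10 q of 21.9 and 31 fragments. The Tet2 KO peak (chr3:89883315-89883597) had nearly the same edges, with a fold enrichment of 6.76, a -log10 q of 7.93 and 17 fragments, the highest fold enrichment of the 9 Tet2 KO peaks. Tpm1 had 2 promoter peaks. One (chr9:66891641-66891887), at an internal start 5256 bp downstream of the RefSeq start, had a fold enrichment of 6.69, a -log10 q of 8.45 and 15 fragments. The other (chr9:66896984-66897399) had a fold enrichment of 5.37, a -log10 q of 5.50 and 12 fragments. At Tpm2 the promoter peak (chr4:43536333-43536734), 66 bp upstream of a start, had a fold enrichment of 7.59, a -log10 q of 15.4 and 28 fragments, and held CAGCTG. The Tpm2 peaks at 967 bp inside and 6523 bp upstream had 5.25 and 6.36. Neither Tpm1 nor Tpm2 had a Tet2 KO peak.

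Acta1, the main actin of adult skeletal muscle, had no peak in either list, and the nearest WT summit lay 9802 bp from its start, outside the window. Actc1, the cardiac actin that embryonic muscle and differentiating myoblasts also use, had 1 peak 4113 bp upstream, with a fold enrichment of 9.56, holding CAGCTG and the MCAT motif. Tropomodulins cap the free end of the actin filament and leiomodins start new ones. Tmod4, the tropomodulin of skeletal muscle, had the strongest peak of the set without a Tet2 KO peak. It was centred 6522 bp upstream of the start (chr3:94921770-94921982), with a fold enrichment of 13.8, a -log10 q of 22.9 and 23 fragments, and held an AP-1 motif and no E box. Tmod1 had 4 intron peaks at 5.52 to 7.97, 3 of them with CAGCTG. The Lmod2 promoter peak (chr6:24547538-24547807), 99 bp upstream of the start, had a fold enrichment of 7.28, with a -log10 q of 8.98 and 14 fragments.

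Of the 9 Z disc and desmin genes 7 had WT peaks, 14 in all, and Des alone had a Tet2 KO peak. Des encodes desmin, the intermediate filament that links neighbouring Z discs and is known to be made already in myoblasts. Its promoter peak (chr1:75356720-75356959), 65 bp upstream of the start, had a fold enrichment of 7.39, a -log10 q of 10.7 and 18 fragments, the weakest of the 8 overlapped WT peaks. The Tet2 KO peak (chr1:75356761-75356941) had a fold enrichment of 4.60, a -log10 q of 3.63 and 13 fragments. It was the smallest drop in fragments of the 8 pairs, to 0.722 of the WT number. No Tet2 KO number was skipped at Des. The other Des peak (chr1:75358512-75358636), inside the gene at the start of a transcript that is not protein-coding, had a fold enrichment of 4.62, with a -log10 q of 4.12 and 11 fragments.

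The alpha-actinins cross-link actin at the Z disc. At Actn2 the promoter peak (chr13:12433056-12433230), 116 bp upstream of the start, had a fold enrichment of 8.90, a -log10 q of 12.2 and 16 fragments, and a peak 28523 bp inside the gene had 9.75. At Actn3, the fast fibre form, the promoter peak (chr19:4878464-4878748) had a fold enrichment of 9.06, with a -log10 q of 17.0 and 26 fragments, and also lay at the promoter of Zdhhc24. Ldb3, a PDZ-LIM protein that binds actinin, had 5 peaks. Its promoter peak (chr14:35401809-35402002), 38 bp upstream of the start, had a fold enrichment of 10, with a -log10 q of 19.1 and 27 fragments, and held a CArG box and an AP-1 motif. The 4 intron peaks of Ldb3 had 4.62 to 8.72. Myoz1 and Myoz2, which bind calcineurin at the Z disc, had peaks at 5.24 and 7.80, and at 10.1. The second Myoz1 peak lay at the promoter of Synpo2l. Csrp3, muscle LIM protein, had 1 intron peak at 5.91, and Tcap, which caps titin, and Myot, myotilin, had none.

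Among titin, the M band and the myosin binding proteins 6 of 7 genes had WT peaks, 13 in all, and 3 of the 13 were overlapped (23.1%, 8.18 to 50.3). Myomesins cross-link myosin filaments at the M band, and the 2 strongest peaks of the whole set lay in myomesin genes. The Myom2 exon peak (chr8:15072852-15073247), 12859 bp inside from the nearest start, had a fold enrichment of 14.2, a -log10 q of 33.0 and 39 fragments. The Tet2 KO peak there (chr8:15072933-15073177) had a fold enrichment of 6.11, a -log10 q of 6.65 and 16 fragments. The Myom2 promoter peak (chr8:15059985-15060230), 83 bp upstream of a start that is not that of a protein-coding transcript, had a fold enrichment of 10.1, a -log10 q of 15.7 and 20 fragments, and no Tet2 KO peak. Another Myom2 peak lay 9740 bp upstream of the gene at 6.08.

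Myom1 had 3 WT peaks in introns and none at a promoter. The first (chr17:71388196-71388459), 19419 bp from the start, had a fold enrichment of 13.9, a -log10 q of 31.2 and 37 fragments. Its Tet2 KO peak (chr17:71388206-71388416) had a fold enrichment of 5.64, a -log10 q of 5.06 and 13 fragments, which was 0.351 of the WT fragments, the largest drop of the 8 pairs. The second (chr17:71408680-71408896) had a fold enrichment of 10.9, a -log10 q of 17.0 and 20 fragments, and its Tet2 KO peak (chr17:71408726-71408857) had a fold enrichment of 5.54, a -log10 q of 4.93 and 13 fragments. The third, 74432 bp from the start, had 8.74 and no Tet2 KO peak. At Myom3 the promoter peak (chr4:135315445-135315640) had a fold enrichment of 5.50, with a -log10 q of 5.41 and 11 fragments, and held CAGGTG and a MEF2 site, and an intron peak had 9.75. Neither had a Tet2 KO peak, and here no number was skipped.

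Ttn, the titin gene, had 2 WT peaks at its start and none over the rest of the gene. The promoter peak (chr2:76820551-76820815), 79 bp upstream, had a fold enrichment of 5.99, a -log10 q of 7.38 and 15 fragments, and the other, 583 bp inside, had 5.56 and held CAGCTG. Myosin binding proteins lie along the thick filament. Mybpc1, the slow form, had 1 peak 1092 bp upstream of the start at 6.22, just outside the promoter range. Mybph had 2 intron peaks at 5.26 and 4.64, both with CAGCTG. Mybpc2, the fast form, had none in either list, and no number was skipped in either.

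Of the 5 genes for assembly, turnover and energy 4 had WT peaks, 10 in all, and each of the 4 had a promoter peak. Smyd1, a methyltransferase of heart and skeletal muscle that is needed to build sarcomeres, had 4. The strongest (chr6:71201040-71201258), 11077 bp from the nearest start, had a fold enrichment of 13.2, a -log10 q of 23.0 and 25 fragments and no Tet2 KO peak. A weaker intron peak (chr6:71177182-71177537) had a fold enrichment of 9.55, with a -log10 q of 14.9 and 20 fragments, and was overlapped by a Tet2 KO peak (chr6:71177293-71177459) with a fold enrichment of 4.89, a -log10 q of 3.55 and 11 fragments. The Smyd1 promoter peak (chr6:71212269-71212671) had a fold enrichment of 8, with a -log10 q of 11.2 and 17 fragments. The GENCODE record of Smyd1 is 2.24 times as long as the RefSeq gene, and the fourth peak, at 6.25, lay in the added length at the promoter of Krcc1.

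Ckm encodes muscle creatine kinase, which regenerates ATP, and has been a model gene for MyoD and MEF2 control through an enhancer upstream of its promoter. Its promoter peak (chr7:19996162-19996459), 133 bp upstream of the start, had a fold enrichment of 12.3, a -log10 q of 23.9 and 29 fragments. It was the strongest of the 24 promoter peaks, and the 200 bp at its summit held none of the motifs searched. The RefSeq promoter of Ckm, from 250 bp before to 50 bp after the start, did hold CAGCTG. The other Ckm peak (chr7:19995196-19995351), 1170 bp upstream, had a fold enrichment of 6.02 and 14 fragments, and held CAGGTG and a MEF2 site. Neither had a Tet2 KO peak. At Unc45b, a myosin chaperone, the promoter peak (chr11:82724605-82724847) had a fold enrichment of 5.53, with a -log10 q of 6.04 and 13 fragments. At Myo18b, an unconventional myosin needed for sarcomere assembly, the promoter peak (chr5:113325422-113325533) had a fold enrichment of 6.00, with a -log10 q of 6.14 and 11 fragments, and intron peaks had 7.69 and 10.3. Trim63, the ubiquitin ligase MuRF1 of muscle wasting, had none in either list.

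**Figure D3:**
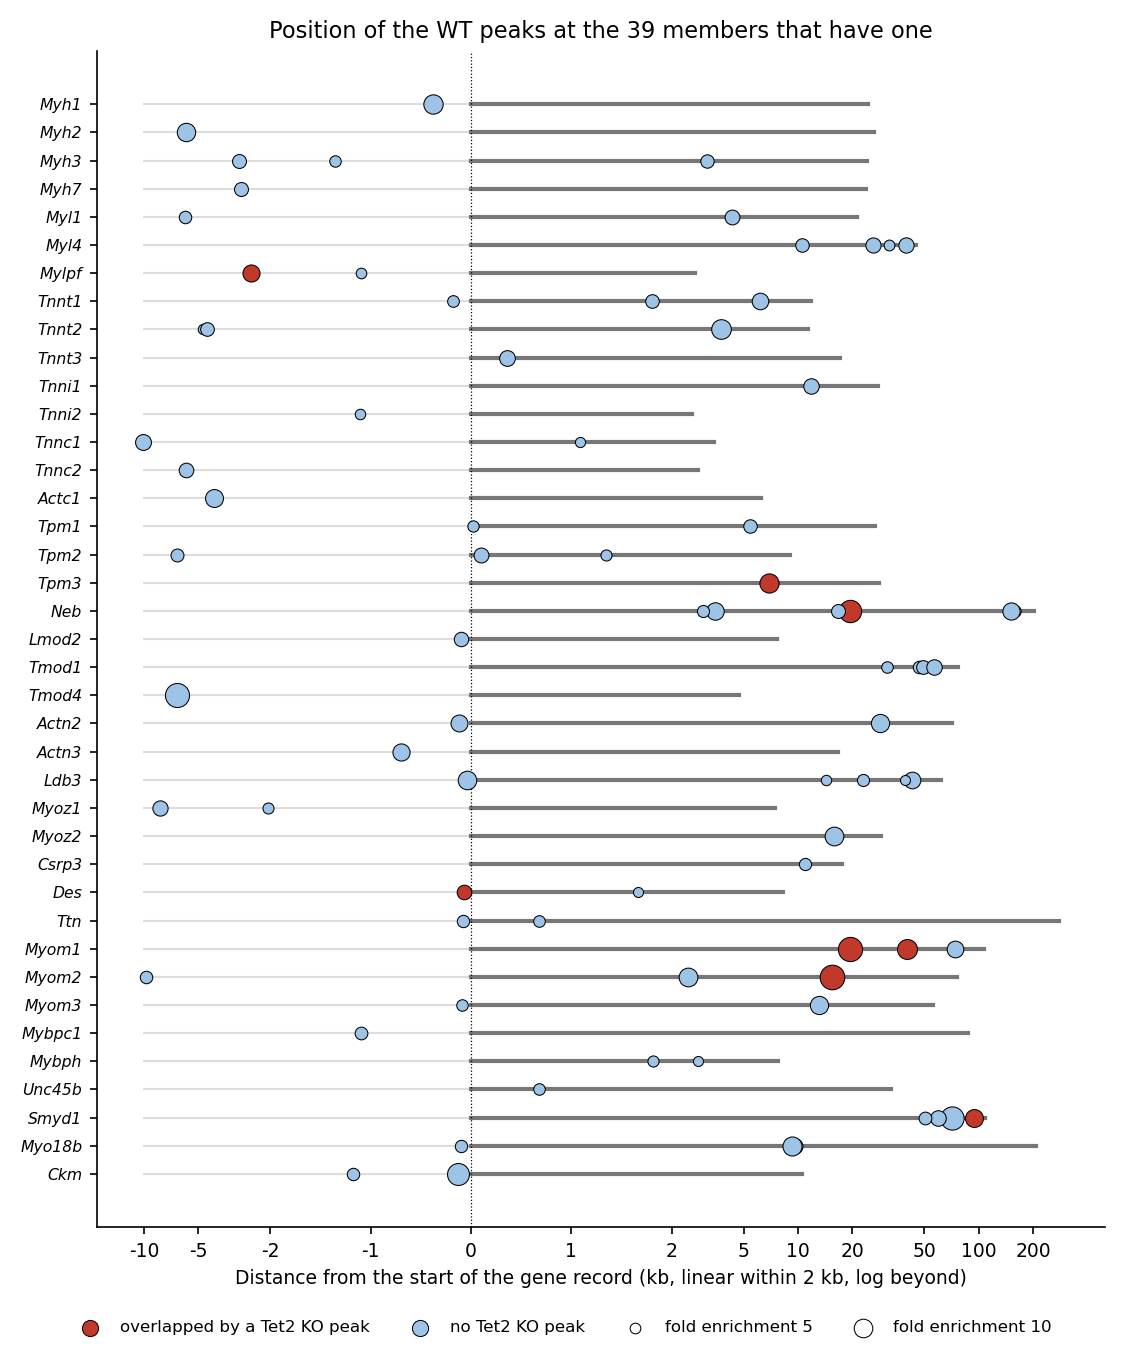
Distance of each WT peak from the start of the gene record (kb, linear within 2 kb and log beyond) for the 39 genes with a WT peak, drawn over the upstream 10 kb (light line) and the gene (dark line), with point area rising with fold enrichment. Of the peaks overlapped by a Tet2 KO peak (red), 6 lie inside genes more than 5 kb from the start, and those at Mylpf and Des lie within 5 kb upstream.

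CAGCTG, the E box that MyoD prefers, had a higher share in the peaks at the sarcomere genes than in WT peaks in general, and outside promoters the AP-1 motif had a lower one. These shares are descriptions, and no difference was tested. Motifs were searched on both strands in the 200 bp at each summit. CAGCTG was present in 40 of 82 (48.8%, 38.3 to 59.4), beside 33.2% of all WT peaks. Outside promoters of any gene it was present in 30 of 53 (56.6%, 43.3 to 69.0), beside 40.0%, and at promoters in 10 of 29 (34.5%, 19.9 to 52.7), beside 15.2%. TGANTCA, bound by AP-1, was present in 15 of 82 (18.3%, 11.4 to 28), beside 34.1%. Outside promoters this was 13 of 53 (24.5%, 14.9 to 37.6), beside 44.0%, and at promoters it was 2 of 29 (6.9%, 1.91 to 22), close to the 7.82% of all WT promoter peaks. The MEF2 site was present in 7 of 82 (8.54%, 4.2 to 16.6), beside 2.43%. It lay in peaks of Ckm, Myh1, Myom3, Myoz1, Myoz2, Neb and Tnnc1. None of these 7 peaks was overlapped by a Tet2 KO peak, and of all WT peaks with the site 8.31% were.

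For the other motifs, taken over all 82 peaks, the intervals held the value of all WT peaks or came close to it, but at promoters 3 of them lay above it. Any E box, CANNTG, which contains CAGCTG and CAGGTG, was present in 80.5% (70.6 to 87.6) beside 71.7%. CAGGTG, or CACCTG on the other strand, was present in 14 of 82 (17.1%, 10.5 to 26.6) beside 10.5%, GGAATG in 17 (20.7%, 13.4 to 30.7) beside 17.2%, and the CArG box in 2 (2.44%, 0.671 to 8.46) beside 1.26%. CAGCTG with a CpG within 10 bp was present in 13 (15.9%, 9.51 to 25.3) beside 12.7%. At the 29 promoter peaks, CANNTG was present in 22 (75.9%, 57.9 to 87.8) beside 48.9%. CAGGTG was present in 6 of these (20.7%, 9.85 to 38.4) beside 8.35%, and GGAATG in 7 (24.1%, 12.2 to 42.1) beside 9.24%. Peaks of one gene share their neighbourhood, and a motif is a run of letters, not a measured binding site.

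**Figure D4:**
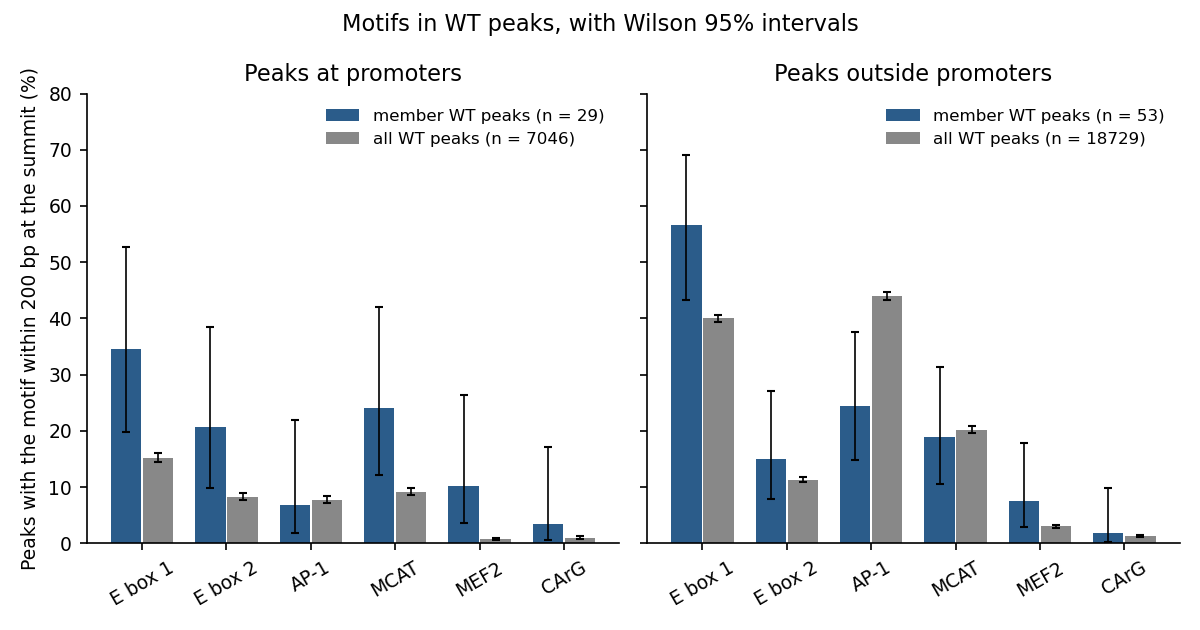
Share of WT peaks (%) with each motif in the 200 bp at the summit, at promoters of any gene (left) and outside promoters (right), for the sarcomere genes (blue) and all WT peaks (grey), with Wilson 95% intervals. E box 1 is CAGCTG, E box 2 CAGGTG, AP-1 TGANTCA and MCAT GGAATG. Outside promoters CAGCTG is present in 56.6% beside 40.0%, and AP-1 in 24.5% beside 44.0%.

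CpG sites were few at the promoters of these genes. In the 29 WT peaks at promoters, the 24 of the genes and 5 of neighbours, the median was 5 CpG sites in 200 bp, beside 14 over all WT promoter peaks. Outside promoters the median was 2 in both. Every one of the 82 peaks had at least 1 CpG site, whereas 8.73% of all WT peaks had none. In the RefSeq promoters, 250 bp before to 50 bp after the start, 39 of the 48 genes had an entry, with a median of 6 CpG sites, beside 16 over 14849 protein-coding genes. At least 10 CpG sites were present in 9 of 39 (23.1%), beside 61.8%. The richest were Tpm1 with 27, Myl4 and Tmod1 with 25, Tpm2 with 20, Actn2 with 19 and Tpm3 with 15. At the low end Mybph had 0, and Myh4, Myl3 and Tnnc1 had 1 each.

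Genes with a WT promoter peak had a median of 8 CpG sites (3 to 27, n = 15) and those without one 5.5 (0 to 25, n = 24), so the ranges overlapped almost in full. CpG sites were counted at RefSeq starts and promoter peaks at any GENCODE start, which can be different promoters. Of the 24 promoter peaks, 14 lay in the promoter range of a RefSeq start. Myl4 counts as having a peak, which lay 26202 bp downstream of its RefSeq start. Tnnt2 counts as having none, with peaks 183 bp upstream and 55 bp downstream of a RefSeq start. Des and Tpm3, the genes with a Tet2 KO promoter peak, had 11 and 15. Acta1, with 12, had no peak at all. In the same promoters CAGCTG was present in 16 of 39 (41.0%), beside 17.9% of protein-coding genes. The MEF2 site and the CArG box were present in 6 each (15.4%), beside 3.17% and 1.74%. In the promoters of 16 relatives that non-muscle cells use, CAGCTG was present in 25%, the MEF2 site in 6.25% and the CArG box in 18.8%. Of the 15 genes with a WT promoter peak, 5 held CAGCTG, 3 the MEF2 site and 1 the CArG box. Of the 24 genes without one, 11 held CAGCTG, 3 the MEF2 site and 5 the CArG box.

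**Figure D5:**
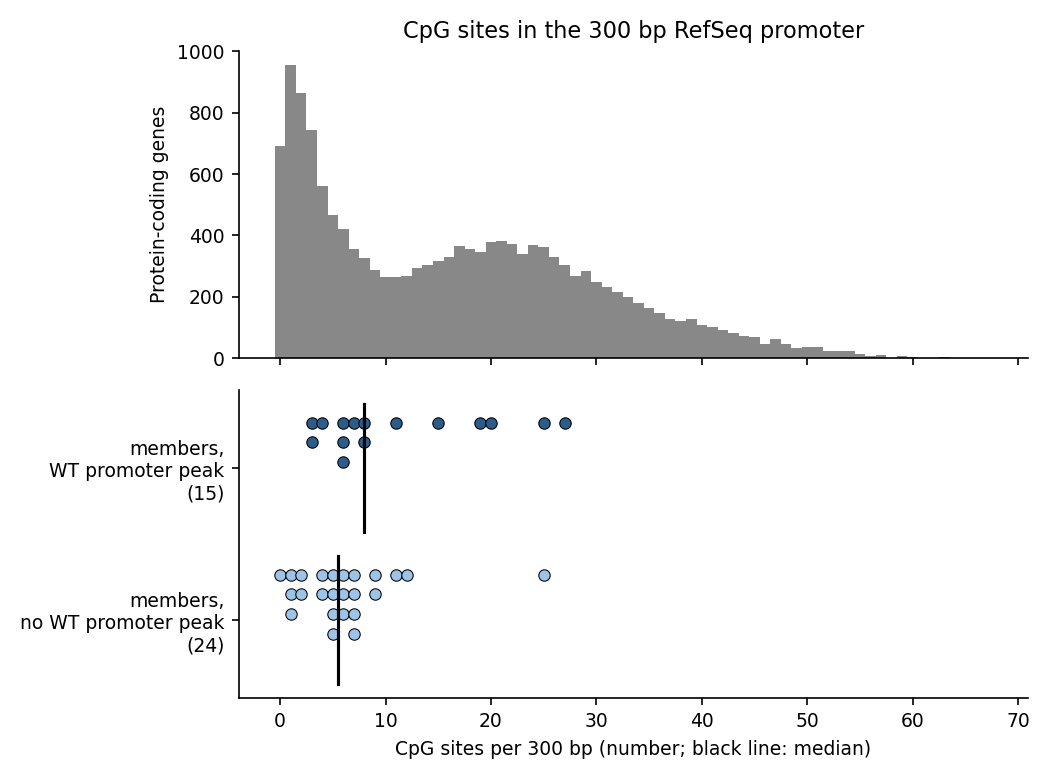
Number of CpG sites in the 300 bp RefSeq promoter of 14849 protein-coding genes (upper panel, number of genes) and of the 39 sarcomere genes with an entry (lower panel, 1 point per gene), with and without a WT promoter peak. A WT promoter peak here is one at any GENCODE start of the gene, which can differ from the RefSeq start. The medians are 8 and 5.5, and the points of both groups lie mostly in the CpG-poor peak of the upper panel.

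Relatives of these genes that non-muscle cells use were taken for comparison. Of 17 non-muscle relatives in the annotation, such as Actn1, Myh9, Myl6 and Vim, 14 had WT peaks, 45 in all, and 9 of the 45 were overlapped (20%, 10.9 to 33.8). Promoter peaks were present at 10 of the 17, and their RefSeq promoters had a median of 21 CpG sites (n = 16). Myh9, the non-muscle myosin heavy chain, held 5 of the 9 overlapped peaks. Of 18 other sarcomere genes outside the set, 13 had WT peaks, 36 in all, and 9 of these were overlapped (25%, 13.8 to 41.1), at Nrap, Obsl1, Pdlim7, Xirp1, Cryab, Flnc and Mylk2. Of 4 relatives restricted to the heart, Myh6, Tnni3 and Mybpc3 had 4 WT peaks, none at a promoter and none overlapped. The interval of each of these shares overlaps that of the 48 genes (9.76%, 5.03 to 18.1), and no difference between the lists was tested.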

How the data were processed

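ATAC-seq peak lists of WT and Tet2 KO primary myoblasts were used, 1 per genotype, each naming a single library that could not be tied to a replicate. Lists were assigned to genotypes by name, and their totals equal the sums of the study's peak classes. The authors trimmed and aligned reads to mm9 with Bowtie2, removed duplicates with Picard and called peaks with MACS2 (versions not given in the sources used here). The authors deposited the fold enrichment as a ratio, the -log10 p and -log10 q of the summit, and the summit position. How peaks were selected for the lists is not given. The methods name a MACS2 q of 0.01, yet 55 Tet2 KO peaks, 0 of them at the genes described, have a -log10 q under 2.

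Fragments at summits were solved from the fold enrichment and -log10 p, with an error under 0.001 in -log10 p. Genes, starts and UTRs came from GENCODE M1, peak sequence from NCBIM37, which is mm9, and promoter sequence from RefSeq on GRCm38. Of the genes, 39 matched RefSeq promoters, and all 46 starts were placed on mm9 by sequence. Tnnc1 and Nrap have 2 records, and the one nearest to RefSeq in length was used. Myl12a and Spi1 were not matched. Full values are given for Tet2 KO peaks and the WT peaks they overlap, WT promoter peaks and the 10 strongest WT peaks. Members and lists were chosen with earlier results of these data known. Calculations were checked on simulated data. Alternatives were stricter limits, other windows, overlap and promoter rules, and merged peaks. No test was made between genotypes, as each has 1 list. Calculations used Python 3.11.15 with pandas 2.3.3, numpy 2.4.6, scipy 1.17.1, pysam 0.24.0 and matplotlib 3.10.9.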

Additional observations from a re-analysis of the deposited data

How the results depend on the processing

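No paired analysis was possible because the lists, 1 for WT and 1 for Tet2 KO, carry no replicate numbers, and for the same reason no replicate could be left out. Of 43 alternative values for the 5 summary results, 34 stayed within 1.5 times the count or inside the interval of the share. These limits are wide. Without the 10 kb upstream, 28 genes in place of 39 had a WT peak, with 57 WT peaks in place of 82, and both values count as kept. With both lists restricted to a -log10 q of 10 or more, WT peaks at the genes fell to 40 and Tet2 KO peaks to 0, and the overlapped share was 0%. Promoters alone left 19 genes with a WT peak, 24 WT peaks and 2 Tet2 KO peaks. With 50 kb on either side there were 207 WT and 27 Tet2 KO peaks, and promoters held 11.6% of the WT peaks. The highest -log10 q of a Tet2 KO peak at the genes was 9.56, so none met the limit of 10. The overlapped share over all WT peaks at that limit was not calculated. Chosen after seeing the data, RefSeq starts added to the GENCODE starts gave a promoter share of 31.7%, and leaving out peaks at promoters of other genes gave an overlapped share of 9.09%. With starts of protein-coding transcripts only, the promoter share was 25.6%, as one peak each of Des, Tnnt1 and Myom2 left it. The single library per genotype, and the unlisted peaks, limit all counts.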
